A study of Mus musculus with 14 samples.

Results

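The genes described here are 10 cytokines and NF-κB-linked genes of 4T1 tumor spheroids: *Nfkbiz*, *Lcn2*, *Cxcl1*, *Cxcl2*, *Cxcl5*, *Ccl2*, *Csf1*, *Csf2*, *Csf3* and *Il6*. They were taken by symbol from a table of 19525 genes, and all 10 were found. They were chosen by name with their values in spheroids with and without aspartate already known, so those values are given below as a description without a test. Their values in the *Grin2d* and *Dhps* knockdowns were known as well. The p-values given for those comparisons are therefore not those of a choice made blind. Polyadenylated RNA of cytosolic lysates was sequenced from spheroids on soft agar of 4T1 cells, an established line from a triple-negative mammary tumor of the mouse. They grew for 5 days in a lung-like medium. Controls expressed a non-targeting hairpin, with 700 µM aspartate in ASP shSCR (n = 4) and none added in NoASP shSCR (n = 3). ASP shGRIN2D (n = 3) expressed a hairpin against *Grin2d*, the gene of an NMDA receptor subunit, and ASP shDHPS (n = 4) one against *Dhps*, the first enzyme of eIF5A hypusination, both with 700 µM aspartate. All groups thus carried a lentiviral hairpin, each knockdown was represented by 1 polyclonal, puromycin-selected line, and no knockdown was sequenced without aspartate.

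NF-κB is a family of dimeric transcription factors held in the cytosol by IκB proteins until receptors for IL-1, TNF, IL-17 or microbial products release it. *Nfkbiz* encodes IκBζ, an atypical nuclear IκB that is itself induced by NF-κB and then assists the transcription of a second set of genes, of which *Lcn2* and *Il6* are known examples. In mammary tumors, CXCL1, CXCL2 and CXCL5 attract neutrophils through the receptor CXCR2, G-CSF (*Csf3*) drives neutrophil production, and CCL2 and M-CSF (*Csf1*) act on monocytes and macrophages.

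Regulatory sequences of these genes are shown first, since some of the genes hold the letters of elements by which such cytokines are known to be controlled. Promoter windows from RefSeq (mouse build GRCm38.p6, 250 bases before to 50 bases after the transcription start) were given for 6 of the 10 genes: *Lcn2*, *Cxcl1*, *Cxcl2*, *Csf1*, *Csf2* and *Il6*. A match to the κB consensus on either strand stood in 4 of these 6 windows, against 8.46% of 32841 mouse promoter windows of the same length. As the genes were chosen as cytokines and NF-κB-linked genes, this share is a description. The matches are shown in capitals within 30 bases, 5′ to 3′ on the strand of the gene.
Cxcl1: ctgtactccGGGAATTTCCCtggcccggag
Cxcl2: ctgagctcaGGGAATTTCCCtggtccccgg
Csf1: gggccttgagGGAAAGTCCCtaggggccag
Il6: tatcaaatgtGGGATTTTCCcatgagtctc

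These stretches lie at chr5:90891165-90891194 (plus strand), chr5:90903793-90903822 (plus), chr3:107760604-107760633 (minus) and chr5:30013060-30013089 (plus), all upstream of the first exon. *Cxcl1* and *Cxcl2*, which are neighbours on chromosome 5, held the same 11-base element, in which a match on each strand overlaps. It began 71 bases before the start of *Cxcl1* and 97 bases before that of *Cxcl2*, against 154 bases for the element of *Csf1* and 44 bases for that of *Il6*. The windows of *Lcn2* and *Csf2* did not hold these letters. The C/EBP-like letters TTGCNNAA stood in the windows of *Lcn2*, *Csf2* and *Il6*, against 10.8% of all windows. The AP-1 letters TGANTCA stood in that of *Il6*, against 7.81%. None of the 6 windows held TGACGTCA, present in 1.79% of windows, or TATAAA, present in 13.6%.

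The 3′ UTRs were examined for the pentamer ATTTA, the core of AU-rich elements through which proteins such as tristetraprolin shorten the life of cytokine mRNAs. The longest protein-coding transcript with a complete 3′ end was taken for each gene (GENCODE, build GRCm38), and which transcript was expressed here was not examined. Of 13980 genes, 67.4% held at least 1 pentamer, with a median of 1 per gene and 1.22 per kb. *Csf2* held 9 pentamers in 317 bases (28.4 per kb), *Cxcl1* 7 in 592 (11.8 per kb), *Csf3* 6 in 669 (8.97 per kb) and *Cxcl2* 11 in 1494 (7.36 per kb). *Il6* held 10, *Cxcl5* 5, *Csf1* and *Nfkbiz* 4 each, *Ccl2* 1, and *Lcn2* had none in a 3′ UTR of 232 bases. The longer element TTATTTATT, found in 7.71% of genes, was present in *Cxcl2* (4 copies), *Csf2* (4) and *Cxcl1* (2). For the 4 densest genes, the 30 bases of 3′ UTR with the most pentamers are shown with the pentamers in capitals.
Csf2: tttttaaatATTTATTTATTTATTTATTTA
Cxcl1: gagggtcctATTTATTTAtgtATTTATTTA
Csf3: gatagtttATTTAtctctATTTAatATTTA
Cxcl2: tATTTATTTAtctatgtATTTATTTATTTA

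They lie at chr11:54247329-54247358 (minus strand), chr5:90892602-90892631 (plus), chr11:98702984-98703013 (plus) and chr5:90905327-90905356 (plus). Neither kind of match is evidence that a factor acts there, and no binding was measured in these samples.

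Libraries held between 12731123 and 23231378 counts, and levels are given as CPM, the counts of a gene relative to the total of its library after TMM scaling. The targeted gene *Dhps* stood at 6.93 ± 1.74 CPM in the 4 ASP shDHPS libraries and 19.4 ± 2.28 CPM in the 4 ASP shSCR libraries (mean ± SD). *Grin2d* stood at 2.46 ± 0.590 CPM in the 3 ASP shGRIN2D libraries and 3.60 ± 0.423 CPM in ASP shSCR. Replicate 2 of ASP shSCR and replicate 2 of NoASP shSCR stood apart from the other control libraries for most genes described here, and the fold changes that rest on them are given with and without them. Epithelial markers were abundant, with 5 genes measured of 6, but their summed level was lower in every knockdown library, at 3092 to 3331 CPM in ASP shGRIN2D and 3180 to 3721 CPM in ASP shDHPS against 4037 to 4125 CPM in ASP shSCR and 3988 to 4143 CPM in NoASP shSCR. Most of this sum was *Krt8* and *Krt18*, with means of 1546 and 1070 CPM over all libraries. The part of the sum in the results below was not tested. *Krt18* was lower in ASP shGRIN2D, and *Epcam* and *Krt14* in ASP shDHPS, than in ASP shSCR (log2 fold changes -0.46, -0.52 and -0.54, edgeR adjusted p = 0.0190, 0.000779 and 0.00186). The call of *Krt18* was lost without any 1 of the ASP shGRIN2D libraries (adjusted p up to 0.147) and without replicate 2 of all 4 groups (edgeR adjusted p = 0.246). Not every marker was lower: *Cdh1* gave -0.06 in ASP shGRIN2D and 0.04 in ASP shDHPS (edgeR adjusted p = 0.880 and 0.873). *Krt14* gave 0.05 in ASP shGRIN2D (edgeR adjusted p = 0.935). Of 12 leukocyte markers, 6 were measured; the pan-leukocyte gene *Ptprc* reached at most 12 counts and the neutrophil gene *Ly6g* at most 2 in any library. The summed level of the list was 12.02 to 22.4 CPM in ASP shSCR, 15.7 to 19.9 in NoASP shSCR, 14.6 to 16.9 in ASP shGRIN2D and 20.4 to 23.3 in ASP shDHPS. Nearly all of it was *Cd68* and *Cd14*. Of 9 fibroblast and endothelial markers, 4 were measured, with 23.0 to 40.9 CPM in all, nearly all of it *Pdgfra*.

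Levels were also compared per kb, with the median length of the annotated protein-coding transcripts of each gene. On this scale the genes fell into 3 tiers in ASP shSCR. *Cxcl1* measured 132 ± 92.6 and *Lcn2* 107 ± 67.1 CPM per kb, followed by *Csf1* (64.7 ± 15.3), *Csf3* (59.9 ± 33.3) and *Cxcl5* (56.8 ± 41.3; all SD, n = 4). *Nfkbiz*, a longer transcript, measured 11.7 ± 8.74 CPM per kb. *Csf2* (2.41 ± 1.76), *Ccl2* (1.66 ± 1.07) and *Cxcl2* (0.923 ± 0.854) were low, and *Il6* was near 0. Neighbours in this order among the first 5 genes, and among *Csf2*, *Ccl2* and *Cxcl2*, did not differ beyond their spread. For *Csf1*, *Cxcl2* and *Il6* the median length (1466.5, 1484 and 1052 bases) is shorter than the 3′ UTR examined above (2111, 1494 and 1668 bases). Their values per kb, and the place of *Csf1* among the first 5 genes, thus depend on the transcript taken.

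The genes were taken in turn by role, beginning with the regulator. *Nfkbiz* (ENSMUSG00000035356) measured 24.8, 95.1, 20.6 and 42.1 CPM in ASP shSCR replicates 1 to 4 and 51.8, 19.9 and 23.8 CPM in NoASP shSCR replicates 2 to 4. It measured 25.7, 26.2 and 22.6 CPM in ASP shGRIN2D replicates 1 to 3 and 28.6, 41.6, 25.8 and 35.3 CPM in ASP shDHPS replicates 1 to 4. Replicate 2 was the highest library of each group, and the 3 ASP shGRIN2D libraries lay close together within the range of the controls.

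*Lcn2* (ENSMUSG00000026822), the iron-binding secreted protein lipocalin 2 and a textbook target of IκBζ, measured 77.5, 187, 51.0 and 73.1 CPM in ASP shSCR and 109, 34.4 and 43.4 CPM in NoASP shSCR. It measured 71.0, 87.1 and 67.1 CPM in ASP shGRIN2D and 83.4, 72.4, 80.5 and 75.8 CPM in ASP shDHPS. Both knockdowns lay between the lower and the higher control libraries.

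Among the CXCR2 ligands, *Cxcl1* (ENSMUSG00000029380) measured 80.01, 257, 70.9 and 94.6 CPM in ASP shSCR, 140, 64.5 and 71.0 CPM in NoASP shSCR, 71.1, 107 and 77.4 CPM in ASP shGRIN2D, and 109, 163, 127 and 130 CPM in ASP shDHPS. Every ASP shDHPS library lay above every ASP shGRIN2D library and above 3 of the 4 ASP shSCR libraries. *Cxcl5* (ENSMUSG00000029371) measured 51.7, 184, 43.9 and 77.7 CPM in ASP shSCR, 129, 44.3 and 57.6 CPM in NoASP shSCR, 46.1, 78.4 and 42.8 CPM in ASP shGRIN2D, and 58.8, 97.3, 55.1 and 72.0 CPM in ASP shDHPS. Its knockdown libraries overlapped each other and the controls. *Cxcl2* (ENSMUSG00000058427) had only 5 to 58 counts per library. It measured 0.394, 3.23, 0.833 and 1.02 CPM in ASP shSCR, 1.45, 0.264 and 0.778 CPM in NoASP shSCR, 0.721, 0.763 and 0.467 CPM in ASP shGRIN2D, and 1.42, 1.27, 1.67 and 1.87 CPM in ASP shDHPS, where all libraries lay above those of ASP shGRIN2D.

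The monocyte chemokine *Ccl2* (ENSMUSG00000035385) had 5 to 60 counts per library. It measured 0.743, 2.56, 1.37 and 0.707 CPM in ASP shSCR, 0.696, 0.791 and 0.278 CPM in NoASP shSCR, 2.21, 3.52 and 2.40 CPM in ASP shGRIN2D, and 2.00, 3.33, 1.35 and 1.76 CPM in ASP shDHPS. It was the only one of these genes whose mean was higher in ASP shGRIN2D than in any other group.

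Of the colony-stimulating factors, *Csf3* (ENSMUSG00000038067) measured 64.3, 155, 54.4 and 64.8 CPM in ASP shSCR, 91.9, 47.7 and 47.8 CPM in NoASP shSCR, 48.1, 58.8 and 41.1 CPM in ASP shGRIN2D, and 83.3, 130, 90.9 and 92.5 CPM in ASP shDHPS. The ASP shDHPS libraries lay above all ASP shGRIN2D libraries and above 3 of the 4 ASP shSCR libraries. *Csf1* (ENSMUSG00000014599) measured 74.2, 126, 85.5 and 93.2 CPM in ASP shSCR, 104, 86.3 and 94.5 CPM in NoASP shSCR, 86.0, 89.7 and 95.2 CPM in ASP shGRIN2D, and 89.2, 148, 116 and 131 CPM in ASP shDHPS. *Csf2* (ENSMUSG00000018916), which encodes GM-CSF, had 9 to 71 counts. It measured 0.918, 3.95, 1.03 and 1.81 CPM in ASP shSCR, 2.09, 0.528 and 0.500 CPM in NoASP shSCR, 0.773, 1.23 and 0.733 CPM in ASP shGRIN2D, and 0.998, 1.73, 1.51 and 1.50 CPM in ASP shDHPS.

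*Il6* (ENSMUSG00000025746) was at the limit of detection, with 0 to 3 counts in each control and ASP shGRIN2D library and 2 to 5 counts in each ASP shDHPS library. A count of 0 allows up to 3 counts, or 0.147 to 0.200 CPM in the 4 libraries at 0. No fold change is given for it, and the comparisons below cover the other 9 genes, whose mean CPM was 0.5 or more.

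**Figure D1:**
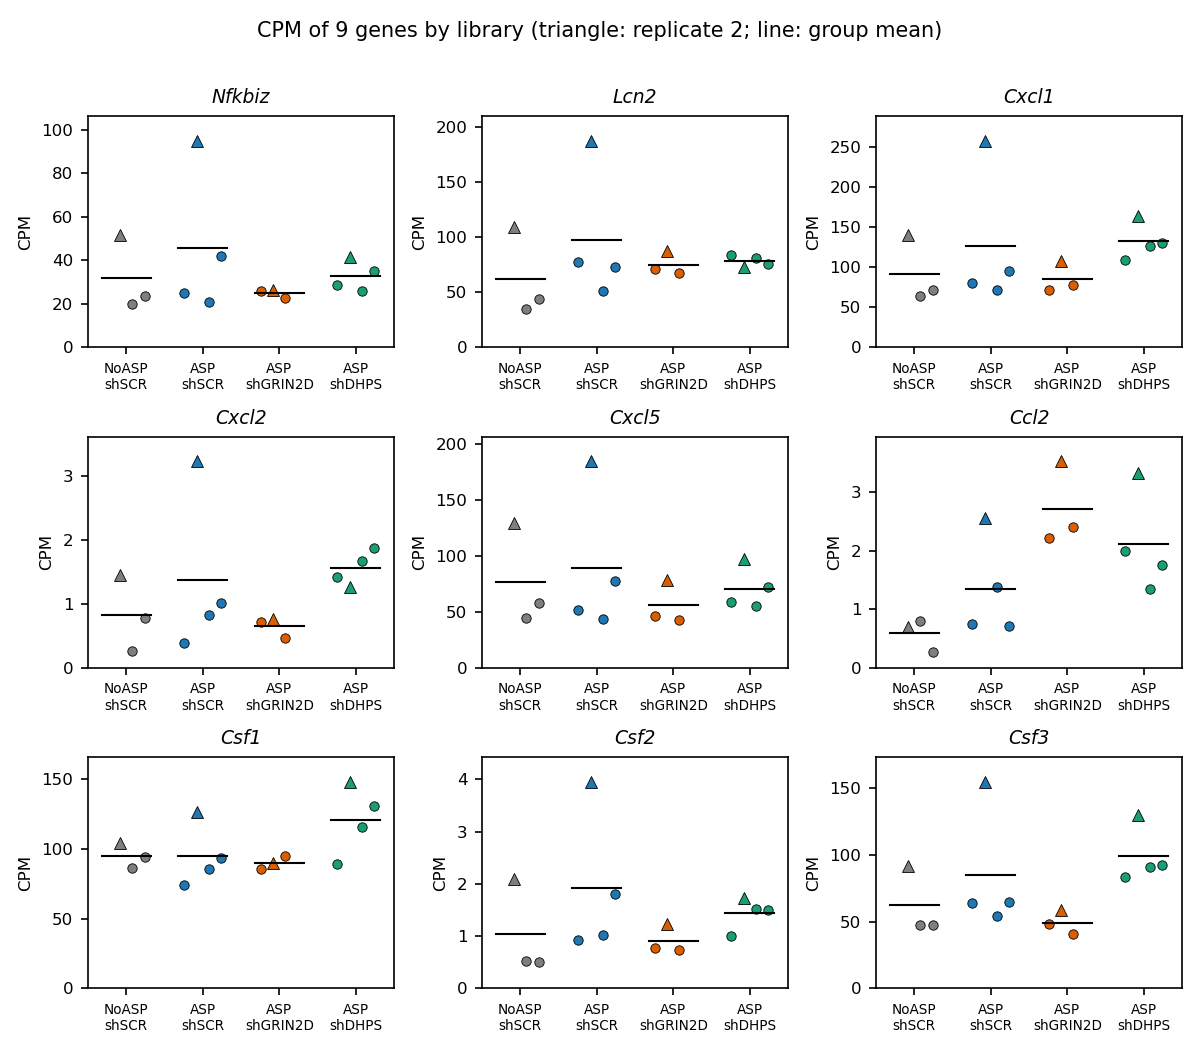
CPM (linear axis from 0) of 9 genes in each of 14 libraries, by group; triangles are replicate 2, circles the other replicates and lines group means. The triangles of NoASP shSCR and ASP shSCR stand above the other controls for all genes but *Ccl2*, for example 51.8 and 95.1 CPM of *Nfkbiz*, and the ASP shDHPS libraries of *Csf3* (83.3 to 130 CPM) lie above those of ASP shGRIN2D (41.1 to 58.8 CPM).

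How the genes varied with aspartate was read from ASP shSCR and NoASP shSCR. As selected on this contrast, 8 of the 9 genes had a higher fitted level with aspartate. The median log2 fold change was 0.52, against 0.00 over all genes, with 1.19 ± 0.47 (SE) for *Ccl2*, 0.87 ± 0.50 for *Csf2*, 0.71 ± 0.55 for *Cxcl2*, 0.64 ± 0.33 for *Lcn2*, 0.52 ± 0.36 for *Nfkbiz*, 0.45 ± 0.32 for *Cxcl1*, 0.44 ± 0.28 for *Csf3* and 0.22 ± 0.38 for *Cxcl5*. *Csf1* lay at 0.00 ± 0.15. Both groups overlapped for every gene. In these lysates, a change in the share of cells that express a gene and a change in the RNA per cell cannot be told apart. Of all genes, 0% were called in this comparison (0 of 19525 at an adjusted p under 0.05, edgeR quasi-likelihood test, and 424 at an unadjusted p under 0.05). With the replicate number as a block over all 14 libraries, 0.0102% (2 genes) were called. With the block within the 7 control libraries, the only ones taken as paired by number, 0.328% (64 genes) were called.

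The libraries were therefore set side by side by replicate number, since same-numbered ASP and NoASP libraries deviated together across genes. In replicate 2, all 9 genes were higher with aspartate, with a median log2 ratio of 0.88. In replicate 4, 8 of 9 were higher (median 0.44), and in replicate 3, 7 of 9 (median 0.19), while the median over all genes was 0.00 in each pair. *Lcn2* gave the most even ratios among the abundant genes, 1.72, 1.48 and 1.68 in replicates 2, 3 and 4. *Nfkbiz* gave ratios of 1.84, 1.04 and 1.77, *Cxcl1* 1.84, 1.10 and 1.33, *Csf3* 1.69, 1.14 and 1.36, and *Cxcl5* 1.43, 0.992 and 1.35. *Csf1* stayed near 1, at 1.21, 0.991 and 0.987. The ratios of *Ccl2* (3.68, 1.73 and 2.54), *Csf2* (1.89, 1.95 and 3.61) and *Cxcl2* (2.23, 3.16 and 1.31) came from 5 to 71 counts per library. In all, 7 of the 9 genes were higher in all 3 pairs, against 12.4% of the 12921 genes at or above 0.5 CPM on average. Since this contrast chose the genes, that share is a description only.

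**Figure D2:**
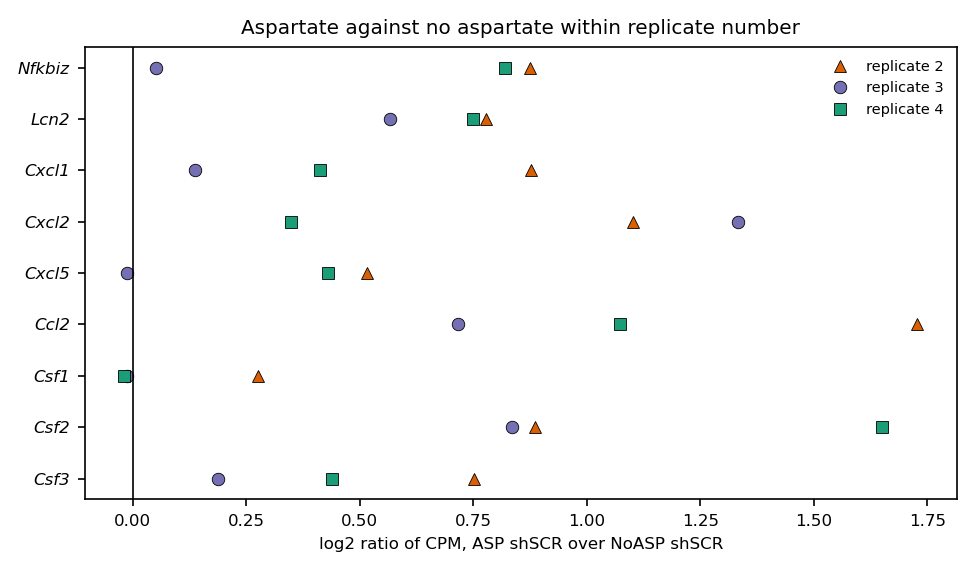
Log2 ratio of CPM in ASP shSCR over NoASP shSCR (x axis) for 9 genes (y axis) in replicate 2 (triangles), replicate 3 (circles) and replicate 4 (squares), with no error since each point is 1 pair of libraries. The points of *Lcn2* lie between 0.57 and 0.78, and those of *Csf1* in replicates 3 and 4 coincide near 0.

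The unpaired fold change rested on single libraries. Without ASP shSCR replicate 2 the median of the 9 genes was -0.14, without NoASP shSCR replicate 2 it was 1.06, and without both it was 0.40. In the same order, *Lcn2* gave 0.11, 1.32 and 0.79, *Cxcl1* -0.17, 0.89 and 0.27, *Csf3* -0.03, 0.82 and 0.35, and *Cxcl5* -0.42, 0.81 and 0.17. The low-count genes gave 0.23, 1.88 and 1.23 (*Csf2*), -0.19, 1.38 and 0.48 (*Cxcl2*) and 0.68, 1.32 and 0.81 (*Ccl2*), and *Csf1* gave -0.17, 0.07 and -0.10. The median gene was *Nfkbiz* in each of these fits. Replicate 2 exceeded the mean of the other ASP shSCR libraries by a factor of 3.26 for *Nfkbiz*, 3.19 for *Cxcl5*, 3.14 for *Cxcl1*, 2.79 for *Lcn2*, 2.53 for *Csf3* and 1.50 for *Csf1*. In NoASP shSCR the same factors were 2.37, 2.53, 2.07, 2.81, 1.92 and 1.15. Thus 5 of the 6 genes averaging 5 CPM or more exceeded 1.5 in both control groups, where 3.30% and 2.38% of all such genes did. In ASP shGRIN2D and ASP shDHPS, 1 of the 6 genes, *Cxcl5*, exceeded 1.5 (1.76 and 1.57), against 0.382% and 0.352% of all genes. Replicate 2 was nevertheless the highest library for 9 of 9 genes in ASP shSCR, 8 of 9 in NoASP shSCR, 8 of 9 in ASP shGRIN2D and 7 of 9 in ASP shDHPS, against 34.8%, 37.1%, 34.9% and 18.4% of 12921 genes. What a replicate number stands for is not given in the descriptions of the samples, and its part in these levels was not tested.

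**Figure D3:**
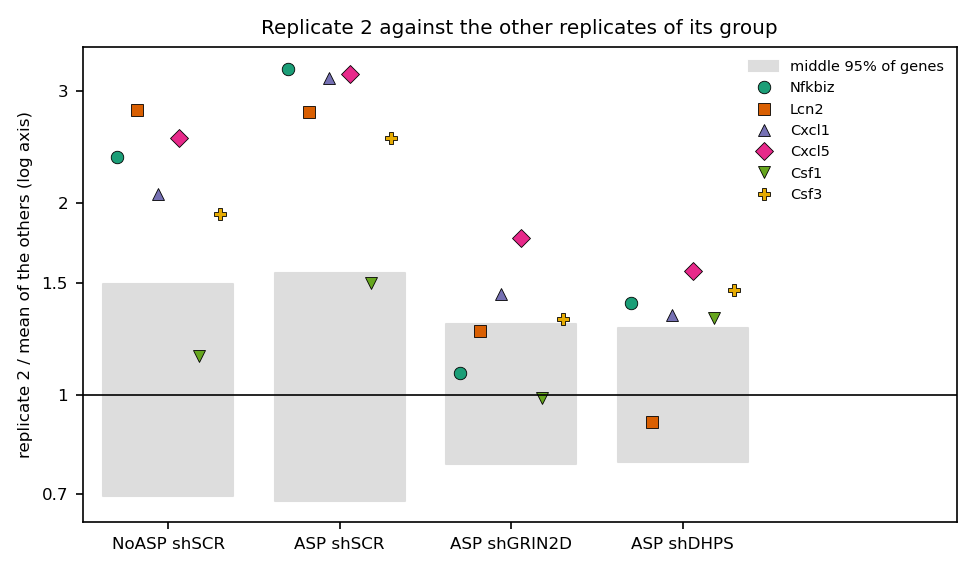
Ratio of replicate 2 to the mean of the other replicates of its group (log axis) for the 6 genes averaging 5 CPM or more; grey boxes span the middle 95% of all genes at that level. In both shSCR groups all genes but *Csf1* lie above the box, from 1.92 to 3.26, and in the knockdown groups the highest ratios are those of *Cxcl5*, 1.76 and 1.57.

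Silencing of the NMDA receptor subunit in the presence of aspartate was examined next, in ASP shGRIN2D against ASP shSCR. No gene of the 9 was called, where 1.16% of all genes were (226 of 19525, edgeR quasi-likelihood test, adjusted p under 0.05). Fitted levels of 8 of 9 genes were lower in ASP shGRIN2D, with a median log2 fold change of -0.68 against 0.00 over all genes. *Nfkbiz* gave -0.87 ± 0.37 (SE, edgeR adjusted p = 0.395), *Csf3* -0.78 ± 0.28 (adjusted p = 0.261), *Cxcl5* -0.68 ± 0.38 (0.564), *Cxcl1* -0.56 ± 0.33 (0.579) and *Lcn2* -0.37 ± 0.33 (0.738). The low-count genes *Csf2* and *Cxcl2* gave -1.06 ± 0.52 and -1.04 ± 0.57. *Csf1* lay at -0.07 ± 0.15, and *Ccl2* alone was on the other side, at 1.00 ± 0.40 (adjusted p = 0.352). *Nfkbiz*, *Csf3* and *Ccl2* had an unadjusted p under 0.05, as did 2040 of all 19525 genes, and DESeq2 called none of the 9. These comparisons share the ASP shSCR libraries with the contrast that chose the genes, and the lower values rested in part on replicate 2 of that group. Without replicate 2 of both shSCR groups, *Nfkbiz* gave -0.22, *Cxcl5* -0.04, *Cxcl1* 0.06, *Lcn2* 0.16, *Csf3* -0.31, *Csf2* -0.41 and *Cxcl2* -0.15, and *Ccl2* gave 1.50 (adjusted p = 0.0655). That fit keeps ASP shGRIN2D replicate 2, the highest of its group for 8 of the 9 genes. With replicate 2 left out of all 4 groups, an alternative chosen after the data were seen, none was called. *Csf3* then gave -0.46 (edgeR adjusted p = 0.0874), *Csf2* -0.69, *Cxcl5* -0.37, *Cxcl2* -0.27, *Nfkbiz* -0.26 and *Cxcl1* -0.14, while *Lcn2* gave 0.040, *Csf1* 0.10 and *Ccl2* 1.27.

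The same question was put to the hypusination enzyme, with ASP shDHPS against ASP shSCR. Again none of the 9 genes was called, against 4.22% of all genes (824 of 19525). Among the 9, *Csf1* alone had an unadjusted p under 0.05, as did 3769 of all 19525 genes. The median log2 fold change was 0.07, with *Ccl2* at 0.62 ± 0.38, *Csf1* at 0.35 ± 0.14 (SE, edgeR adjusted p = 0.171), *Csf3* at 0.23 ± 0.25, *Cxcl2* at 0.20 ± 0.48 and *Cxcl1* at 0.07 ± 0.30. Below 0 lay *Lcn2* (-0.32 ± 0.30), *Cxcl5* (-0.34 ± 0.35), *Csf2* (-0.42 ± 0.45) and *Nfkbiz* (-0.47 ± 0.34). These values, too, rested on ASP shSCR replicate 2, one of the libraries on which the genes were chosen. Without replicate 2 of both shSCR groups, 3 of the 9 genes were called higher in ASP shDHPS, against 2.90% of all genes called in that fit. That fit leaves out the highest control library and keeps ASP shDHPS replicate 2, which was the highest of its group for 7 of the 9 genes. These were *Csf3* (0.70 ± 0.13, adjusted p = 0.00401), *Cxcl1* (0.70 ± 0.14, adjusted p = 0.00538) and *Csf1* (0.53 ± 0.12, adjusted p = 0.0196). With replicate 2 left out of all 4 groups, an alternative chosen after the data were seen, *Csf3* (0.54 ± 0.10, adjusted p = 0.00529) and *Cxcl1* (0.58 ± 0.11, adjusted p = 0.00577) were called and *Csf1* was not (0.41 ± 0.12, adjusted p = 0.0802), 2 of 9 against 2.40% of all genes. DESeq2 called none of the 9 on all 14 libraries.

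The 2 knockdowns were then compared with each other, which shares no library with the contrast that chose the genes, although its values too were known when they were chosen. None of the 9 passed the threshold in the fit of all 14 libraries, against 2.82% of all genes (550 of 19525), and DESeq2 called none. Fitted levels of 8 of 9 genes were higher in ASP shDHPS, with a median log2 fold change of 0.42 against 0.01 over all genes. *Csf3* came nearest, with 99.2 ± 21.0 CPM in the 4 ASP shDHPS libraries and 49.3 ± 8.92 CPM in the 3 ASP shGRIN2D libraries (mean ± SD). Its log2 fold change was 1.01 ± 0.28 (SE, edgeR adjusted p = 0.0559). *Cxcl2* gave 1.24 ± 0.57 and *Csf1* 0.42 ± 0.15, both also at an unadjusted p under 0.05, and *Cxcl1* 0.63 ± 0.33 (adjusted p = 0.309, 0.167 and 0.370). Of all 19525 genes, 2898 had an unadjusted p under 0.05 in this comparison. *Csf2* lay at 0.64 ± 0.52, *Nfkbiz* at 0.40 ± 0.37, *Cxcl5* at 0.34 ± 0.38 and *Lcn2* at 0.06 ± 0.33, while *Ccl2* lay at -0.37 ± 0.39. The libraries of both knockdowns did not overlap for *Csf3*, *Cxcl1* and *Cxcl2*, 3 of 9 genes, against 20.1% of 12921 genes.

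Whether *Csf3* and *Cxcl1* were called depended on the fit. Of 15 alternatives, 4 called *Csf3* and 4 called *Cxcl1*. These fits share the knockdown libraries and are not independent of each other. Fitted on the 7 knockdown libraries alone, *Csf3* (1.01 ± 0.14, edgeR adjusted p = 5.96e-05) and *Cxcl1* (0.63 ± 0.14, adjusted p = 0.00634) were called higher in ASP shDHPS, 2 of 9 genes, against 3.63% of all genes. With only replicate 2 of both shSCR groups left out, a fit chosen after the data were seen, the same 2 genes were called (edgeR adjusted p = 5.40e-05 and 0.00659), against 849 of all 19525 genes. They were also called with replicate 2 left out of all 4 groups, likewise chosen after the data were seen (edgeR adjusted p = 3.27e-05 and 0.00202), against 2.59% of all genes. The log2 fold change of *Csf3* was 1.01 with all libraries and 1.01, 1.01 and 1.00 in the fits just named. Its standard error was 0.28 with all libraries and 0.14, 0.13 and 0.12 in the others.

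**Figure D4:**
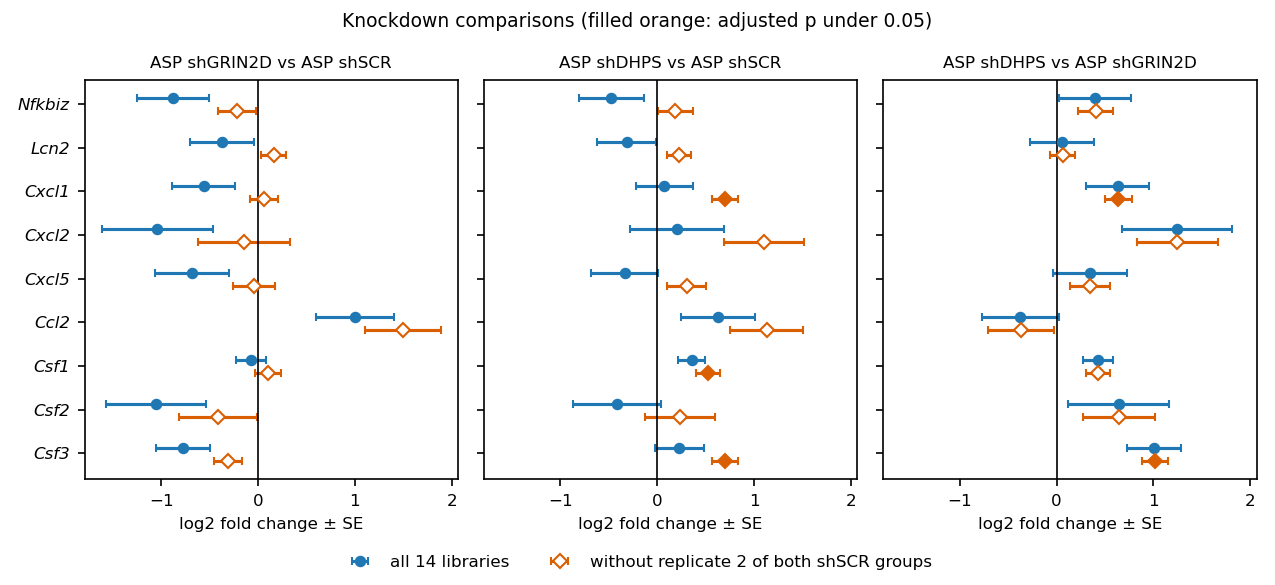
Log2 fold change ± SE (x axis) of 9 genes in the 3 knockdown comparisons, fitted on all 14 libraries (blue) or without replicate 2 of both shSCR groups (orange; filled where the adjusted p was under 0.05). Blue points of *Csf3* lie at -0.78, 0.23 and 1.01, and orange points at -0.31, 0.70 and 1.01; no blue point was called.

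Most of the genes varied together across libraries. Over the 14 libraries, Pearson r of log2 CPM was 0.95 between *Nfkbiz* and *Cxcl5* (Spearman rho 0.92), 0.95 between *Cxcl1* and *Csf3* (rho 0.93), 0.88 between *Nfkbiz* and *Cxcl1* (rho 0.89) and 0.82 between *Nfkbiz* and *Lcn2* (rho 0.77). Leaving out replicate 2 of both shSCR groups, these values were 0.86, 0.92, 0.74 and 0.53. Over all 28 pairs of genes other than *Ccl2*, r ran from 0.40 (*Lcn2* and *Csf1*) to 0.95, with a median of 0.82, and from 0.22 to 0.92 without those 2 libraries, with a median of 0.71. *Ccl2* had lower values, 0.18 to 0.44 with the other genes, or 0.36 to 0.68 after centring on group means, where the other pairs ran from 0.51 to 0.98. The points share libraries and, in replicate 2, 2 libraries far from the rest, so these values are a description.

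Outside the list, the genes whose log2 CPM most resembled the mean of the 6 abundant members over 14 libraries, among 9855 genes, were *Birc3* (r = 0.97, rho 0.93), an NF-κB target that encodes the ubiquitin ligase cIAP2, and *Nfkbia* (r = 0.97, rho 0.94), which encodes IκBα. *Pttg1ip* (0.93), *Apln* (0.93), the secreted peptide apelin, and *Sdc4* (0.91), a cell surface proteoglycan, followed. When replicate 2 of both shSCR groups was left out, r was between 0.82 and 0.94 for these 5, and without the 2 libraries farthest from the median (ASP shSCR replicate 2 and ASP shDHPS replicate 2) between 0.84 and 0.93. After centring on group means the nearest were the membrane-bound chemokine *Cx3cl1* (0.99), *Apln* (0.98), *Nfkbia* (0.97), the linker histone *H1f0* (0.97) and *Birc3* (0.97). *Nfkbia* measured 54.8, 128, 48.3 and 55.9 CPM in ASP shSCR and 83.1, 52.3 and 52.7 CPM in NoASP shSCR, so that the same 2 libraries stood out.

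The surrounding pathway was examined by lists of genes, which were also chosen with earlier results of these data known. Counts called in this and the following lists stand against all 12921 genes averaging 0.5 CPM or more. Of these, 1.73% were called in ASP shGRIN2D, 6.28% in ASP shDHPS and 4.21% between the knockdowns. No list was tested as a set. Transcripts of the 5 NF-κB subunits did not pass the test in any knockdown comparison, and the most abundant, *Nfkb2* and *Rela*, gave log2 fold changes of -0.16 and -0.05 in ASP shGRIN2D and -0.02 and 0.14 in ASP shDHPS against ASP shSCR. Of 11 inhibitors and feedback regulators, 1 was called lower in ASP shGRIN2D and none was called in the other comparisons. This was *Tnfaip3*, which encodes the NF-κB-terminating enzyme A20. It measured 45.8, 42.7 and 48.9 CPM in ASP shGRIN2D against 65.1, 114, 62.6 and 69.7 CPM in ASP shSCR, with a log2 fold change of -0.77 ± 0.18 (SE, edgeR adjusted p = 0.0337). The groups did not overlap, although 6 of 15 alternative fits lost the call, those without ASP shSCR replicate 2 (-0.52, adjusted p = 0.0700) or without any 1 ASP shGRIN2D library (adjusted p up to 0.168) among them.

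Of 11 upstream cytokines measured of 13, *Il1a* was the one called, and it was called in all 3 knockdown comparisons. *Il1a* encodes IL-1α, an alarmin that activates NF-κB through the receptor IL1R1. It measured 147, 208, 129 and 164 CPM in ASP shSCR, 145, 141 and 139 CPM in NoASP shSCR, 117, 121 and 101 CPM in ASP shGRIN2D, and 259, 236, 199 and 224 CPM in ASP shDHPS. All ASP shGRIN2D libraries lay below and all but 1 of the ASP shDHPS libraries above every control library. The log2 fold change was -0.52 ± 0.13 in ASP shGRIN2D (SE, edgeR adjusted p = 0.0444) and 0.50 ± 0.12 in ASP shDHPS (adjusted p = 0.0140), and ASP shDHPS exceeded ASP shGRIN2D by 1.02 ± 0.13 (adjusted p = 4.43e-05). The call in ASP shGRIN2D was lost in 8 of 15 alternative fits. These included the fit without replicate 2 of both shSCR groups (-0.38, adjusted p = 0.125), and those without ASP shSCR replicate 2 or 4 or any 1 ASP shGRIN2D library (adjusted p from 0.107 to 0.295), while the other 2 calls held in every fit. *Il1b*, *Il33* and *Tnf* had means of at most 1.70 CPM.

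Of 23 receptors and adaptors of the IL-1, IL-17, TNF and Toll-like receptor pathways, 1 was lower in ASP shGRIN2D and 2 were lower in ASP shDHPS. Of the 12921 genes averaging 0.5 CPM or more, 1.73% and 6.28% were called in these comparisons, so counts this small do not set the list apart. The receptor gene *Il1r1* measured 35.6, 32.6, 27.6 and 32.5 CPM in ASP shDHPS against 47.9, 48.6, 42.0 and 44.5 CPM in ASP shSCR (log2 fold change -0.51 ± 0.10, edgeR adjusted p = 0.00429). It stood at 57.4, 52.3 and 54.4 CPM in ASP shGRIN2D, so that *Il1r1* and *Il1a* differed between the knockdowns in opposite directions (-0.77 ± 0.10 for *Il1r1*, adjusted p = 0.000124). *Il17rd*, a low-abundance relative of the IL-17 receptors, was also lower in ASP shDHPS (-1.33 ± 0.34, adjusted p = 0.0279), a call lost without replicate 2 of both shSCR groups (adjusted p = 0.0566) or when replicate 2 or 4 of ASP shSCR, or 1 or 3 of ASP shDHPS, was left out (adjusted p up to 0.105). *Tlr3*, a sensor of double-stranded RNA, was lower in ASP shGRIN2D (-0.55 ± 0.13, adjusted p = 0.0459) and higher in ASP shDHPS than in ASP shGRIN2D (0.52 ± 0.13, adjusted p = 0.0375). Both calls of *Tlr3* were lost without any 1 ASP shGRIN2D library (adjusted p up to 0.291 and 0.240), the first also without ASP shSCR replicate 2, 3 or 4 and the second without ASP shDHPS replicate 1 or 4. Of 7 measured receptors for the cytokines themselves, *Il6ra* was lower in ASP shDHPS than in ASP shGRIN2D (-0.64 ± 0.12, adjusted p = 0.00468, and 0.0611 without ASP shGRIN2D replicate 1), and no other was called. *Cxcr2* had a mean of 0.965 CPM and *Csf1r* of 0.0432 CPM.

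**Figure D5:**
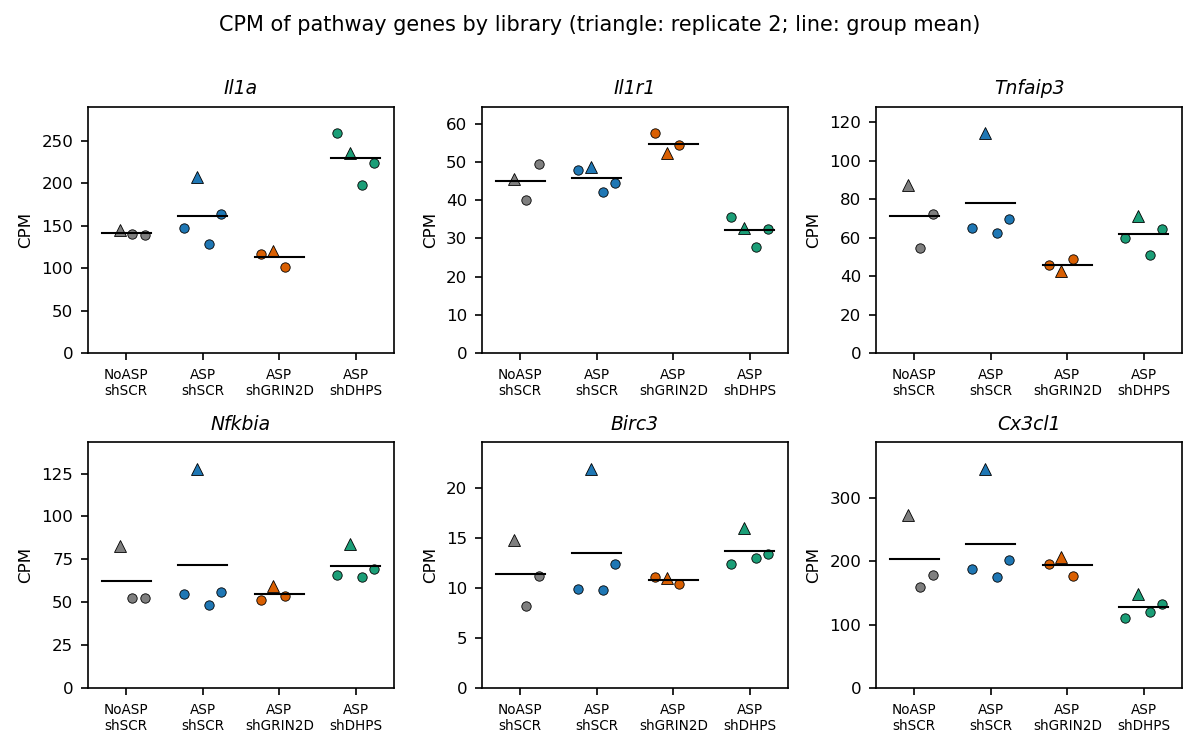
CPM (linear axis from 0) of 6 pathway genes in each of 14 libraries, by group; triangles are replicate 2, circles the other replicates and lines group means. *Il1a* lies at 101 to 121 CPM in ASP shGRIN2D and 199 to 259 CPM in ASP shDHPS, *Il1r1* lies the other way, and *Nfkbia*, *Birc3* and *Cx3cl1* have their highest values in ASP shSCR replicate 2.

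Of 15 other chemokines measured of 22, none was called in ASP shGRIN2D, and 2 were higher and 1 was lower in ASP shDHPS than in ASP shSCR. *Cxcl16* stood at 80.5 ± 2.598 CPM and 52.3 ± 5.77 CPM (mean ± SD of 4 libraries each), with a log2 fold change of 0.62 ± 0.10 (SE, edgeR adjusted p = 0.00118). The interferon-responsive *Cxcl10* gave 1.19 ± 0.25 (adjusted p = 0.00872) at 2.66 against 1.17 CPM. *Cx3cl1* gave -0.83 ± 0.18 (adjusted p = 0.00863), although it resembled the members most closely within groups. *Cxcl16* (0.84 ± 0.11, adjusted p = 8.88e-05) and *Mif* (0.40 ± 0.10, adjusted p = 0.0250) were higher in ASP shDHPS than in ASP shGRIN2D, the latter not without any 1 ASP shGRIN2D library (adjusted p up to 0.160).

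Of 25 other genes of the acute-phase and IL-17 response measured of 29, *Mmp9*, a matrix protease, was lower in both knockdowns. Its mean was 31.1 ± 4.98 CPM in ASP shGRIN2D (n = 3), 24.9 ± 3.18 CPM in ASP shDHPS (n = 4) and 70.8 ± 26.1 CPM in ASP shSCR (n = 4, each ± SD). The log2 fold changes were -1.19 ± 0.21 and -1.51 ± 0.19 (edgeR adjusted p = 0.00300 and 9.13e-05), and both comparisons share the ASP shSCR libraries. In ASP shGRIN2D, the cytokine *Il24* was also lower (-0.71 ± 0.17, adjusted p = 0.0444) and the protease inhibitor *Slpi* higher (0.50 ± 0.10, adjusted p = 0.0124). In ASP shDHPS, *Fosl1*, a subunit of AP-1, was higher (0.72 ± 0.19, adjusted p = 0.0298). Between the knockdowns, *Il24* was higher (0.76 ± 0.17, adjusted p = 0.0153) and *Slpi* lower (-0.53 ± 0.10, adjusted p = 0.00406) in ASP shDHPS. Several of these calls turned on single libraries. That of *Il24* in ASP shGRIN2D was lost without ASP shSCR replicate 1, 3 or 4 or any 1 ASP shGRIN2D library (adjusted p up to 0.294). It was also lost without replicate 2 of all 4 groups (edgeR adjusted p = 0.0870). The call of *Il24* between the knockdowns was lost without ASP shGRIN2D replicate 1 or 2 or ASP shDHPS replicate 1 (up to 0.118). *Slpi* in ASP shGRIN2D was lost without ASP shSCR replicate 4 or ASP shGRIN2D replicate 1 or 2 (up to 0.134). Without replicate 2 of all 4 groups, both calls of *Slpi* were lost, in ASP shGRIN2D (edgeR adjusted p = 0.158) and between the knockdowns (0.0868). *Fosl1* was lost without ASP shSCR replicate 1, 2 or 4 or ASP shDHPS replicate 3 (up to 0.119).

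Of 12 regulators of cytokine mRNA decay, which act on AU-rich elements or related sites, 1 was called lower in ASP shGRIN2D and none was called in ASP shDHPS. This was *Tia1*, a binder of AU-rich RNA that represses translation (-0.51 ± 0.10, edgeR adjusted p = 0.00835, and 0.0681 and 0.0678 without ASP shGRIN2D replicate 1 or 3). Of 8 genes of the STAT3 arm that IL-6 and G-CSF signal through, *Jak2* was lower in ASP shDHPS (-0.81 ± 0.12, adjusted p = 0.000599), and none was called in the other comparisons.

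In the wider hallmark set of TNF signalling via NF-κB, which holds 7 of the members, 187 of 200 genes were measured. In ASP shGRIN2D 2 were called higher and 8 lower, in ASP shDHPS 11 higher and 6 lower, and between the knockdowns 8 higher and 6 lower in ASP shDHPS. The median log2 fold changes were 0.00, 0.06 and 0.09. These were 5.35%, 9.09% and 7.49% of the measured genes of the set, against 1.16%, 4.22% and 2.82% of all 19525 genes. Of the 12921 genes averaging 0.5 CPM or more, 1.73%, 6.28% and 4.21% were called. The set of the inflammatory response (157 of 201 genes measured) had 4 higher and 6 lower, 7 higher and 6 lower, and 7 higher and 5 lower (6.37%, 8.28% and 7.64%). The set of IL-6, JAK and STAT3 signalling (76 of 88 measured) had 1 higher and 1 lower, 3 higher and 3 lower, and 1 higher and 3 lower (2.63%, 7.89% and 5.26%).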

How the data were processed

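RNA was the input of polysome profiling, taken from the cytosolic lysate before fractionation and sequenced from polyadenylated transcripts with a stranded kit. Reads were trimmed (Trim Galore 0.6.6), checked (FastQC 0.11.9) and mapped to GRCm39 (STAR 2.6.1) by the authors, who then estimated gene abundance with Salmon 1.4.0, rounded it, and kept a gene only if some condition showed it in 2 or more replicates. The deposited counts were whole numbers per gene, not normalized. Estimation divides reads among similar transcripts, and the 3 *Cxcl* genes are related. Tables of the authors' own comparison (fold changes and gene set scores) were not used. Samples were grouped by their descriptions.

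Counts of 19525 genes were normalized by TMM and fitted in 1 quasi-likelihood model over all 14 libraries (edgeR 4.0.16, R 4.3.3), with no term but the group and Benjamini-Hochberg adjustment over all genes. Calls required an adjusted p under 0.05, and log2 CPM used a prior count of 2. The procedure was tested on simulated counts with planted fold changes. The simulation held no shift shared by libraries of 1 replicate number, so it does not bear on the replicate 2 libraries. Members and lists were chosen with earlier results of these data known. All 10 members were named. From each list, called genes were named (at most 4 per comparison, smallest p first), or the 2 most abundant where none was called. Likeness was computed for genes averaging 5 CPM or more that were no predicted gene models. Alternatives were DESeq2 1.42.0, RLE size factors, library size alone, edgeR's expression filter, a fit of only the groups compared, a replicate block, and leaving out libraries.

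Whether replicate numbers pair libraries was checked by correlating, over 10224 genes, how libraries of the same number departed from the means of their groups. Between controls with and without aspartate r was 0.51, 0.29 and 0.20, and the numbers were taken to pair them. Libraries of different numbers were not correlated, so there is no baseline for these values and they do not by themselves show pairing. In the other comparisons r was below 0.1 in at least 1 pair, and their libraries were not taken as paired. Between ASP shDHPS and ASP shSCR r was 0.26, 0.20, 0.20 and 0.04 in replicates 1 to 4, so pairing there was not excluded. In replicates 1 to 3, r was -0.10, -0.12 and 0.04 between ASP shGRIN2D and ASP shSCR, and 0.01, 0.03 and 0.23 between the knockdowns. The study's methods give 4 independent pellets of spheroids per condition for the polysome fractions and take the input RNA from the same lysates. The descriptions of the samples do not say more of the replicates, so p-values measure the spread between these samples. Transcript lengths, 3′ UTRs and promoters came from GENCODE and RefSeq on GRCm38, and no coordinate was converted. The limit for a count of 0 covers counting error only, whereas standard errors include the spread between libraries.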

Additional observations from a re-analysis of the deposited data

Results flagged for a closer look

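In ASP shSCR, replicate 2 lay far above the other 3 libraries for *Cxcl1*, at 257 CPM against 70.9 to 94.6 CPM, a gap of 0.873 of the range of the group, above the critical value of Dixon's test for 4 samples. *Csf3* gave the same picture, at 155 CPM against 54.4 to 64.8 CPM (0.897 of the range). These were 2 flags among 20 groups of 4 samples, where chance flags about 1 in 20, a rate that does not hold for genes chosen with these values known, so the gaps are a description. The gaps of the other genes in that library were below the critical value, for example 0.805 for *Lcn2* and 0.711 for *Nfkbiz*. Among the ASP shDHPS libraries the widest gap was that of *Csf3* (0.802), again with replicate 2 at the top.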

How the results depend on the processing

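With the replicate number as a block, 2 members were called in ASP shGRIN2D (*Cxcl5* and *Csf3*), 2 in ASP shDHPS against ASP shSCR (*Csf1* and *Csf3*) and 3 between the knockdowns (*Cxcl1*, *Csf1* and *Csf3*). The libraries of these comparisons were not taken as paired by number. The median with aspartate was 0.52 with that block, or 0.62 with the block fitted within the 7 control libraries. Without replicate 2 of both shSCR groups, 3 members were called in ASP shDHPS and 2 between the knockdowns, the latter fit chosen after the data were seen, and a fit of only the knockdowns called 2. With replicate 2 left out of all 4 groups, also chosen after the data were seen, 0, 2 and 2 were called. Leaving out each library in turn gave 0 called members in ASP shGRIN2D, 0 to 2 in ASP shDHPS (2 without ASP shSCR replicate 2, 1 without ASP shDHPS replicate 1) and 0 to 1 between the knockdowns (1 without ASP shDHPS replicate 1), and a median with aspartate of -0.14 to 1.06. DESeq2, other scalings and the expression filter called 0 in each, and other scalings moved the median of all genes by at most 0.02 on the log2 scale. Over all genes, calls in ASP shGRIN2D, in ASP shDHPS and between the knockdowns numbered 226, 824 and 550, against 442, 1379 and 933 by DESeq2 and 611, 2150 and 1468 with the replicate block. They numbered 374 in ASP shGRIN2D with only the groups compared and 849 between the knockdowns without replicate 2 of both shSCR groups, and 468 in ASP shDHPS without replicate 2 of all groups. With single libraries left out they fell as low as 86 and 209 (without ASP shGRIN2D replicate 1) and 412 (ASP shDHPS, without ASP shSCR replicate 2). Without ASP shDHPS replicate 1 they numbered 638 in ASP shDHPS and 446 between the knockdowns.

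No named gene that was called in the fit of all 14 libraries changed direction. *Cxcl1*, not called in that fit, was called higher in ASP shDHPS against ASP shSCR in 2 of 16 alternatives and fell below 0 in 4. Without replicate 2 of both shSCR groups, members that were not called changed sign in ASP shGRIN2D (*Lcn2* 0.16, *Cxcl1* 0.059, *Csf1* 0.10) and ASP shDHPS (*Nfkbiz* 0.19, *Lcn2* 0.22, *Cxcl5* 0.30, *Csf2* 0.23). Without replicate 2 of all groups, these were *Lcn2* 0.040 and *Csf1* 0.10 in ASP shGRIN2D, and *Nfkbiz* 0.051, *Lcn2* 0.25, *Cxcl5* 0.11 and *Csf2* 0.13 in ASP shDHPS. When single libraries were left out, the range was -0.59 to 0.16 for *Lcn2*, -0.76 to 0.060 for *Cxcl1* and -0.17 to 0.10 for *Csf1* in ASP shGRIN2D. It was -0.72 to 0.18 for *Nfkbiz*, -0.53 to 0.22 for *Lcn2*, -0.13 to 0.69 for *Cxcl1*, -0.13 to 1.10 for *Cxcl2*, -0.57 to 0.30 for *Cxcl5* and -0.66 to 0.23 for *Csf2* in ASP shDHPS, and -0.018 to 0.18 for *Lcn2* between the knockdowns. In ASP shGRIN2D, *Mmp9* kept its call in all 15 alternatives, while *Tnfaip3*, *Il1a*, *Tlr3*, *Il24*, *Slpi* and *Tia1* each lost it in at least 1. Folds of *Cxcl2*, *Ccl2* and *Csf2* rest on 5 to 71 counts per library, and *Il6* was too low for any.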
